A study of Mus musculus with 2 samples.

Results

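The genes of the major histocompatibility complex (MHC, called H2 in the mouse) and of antigen processing were examined in platelet RNA of Smad4 f/f and Smad4 −/− mice. Members were taken by gene symbol from the array annotation: H2 symbols of letters and digits, B2m, Tap1, Tap2, Tapbp, Tapbpl, Erap1, Cd74, Ciita and Nlrc5. The pattern found 41 gene symbols of 19324 in all, on 78 of 45037 probe sets that are not controls. A probe set is a group of short probes that is read as 1 value, and 15 of the 78 carry several symbols, so that their values cannot be given to 1 gene. Class I had 27 of the symbols on 49 probe sets and class II had 12 symbols on 26. The symbols H2-Bl and H2-Ke6, on 3 probe sets, fall in neither list as drawn up here and are given apart. H2-Bl is a class I-type gene, so the class I counts and medians below leave it out.

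The animals were C57BL/6 mice whose Smad4 gene carries loxP sites (Smad4 f/f), and mice of that line in which Cre recombinase, driven by the PF4 promoter, deletes Smad4 in megakaryocytes and platelets (Smad4 −/−). Both groups share the loxP-flanked allele, and whether the Smad4 f/f mice carry the Cre transgene, their ages, and whether RNA was pooled are not given in the sources used here. RNA of washed platelets was hybridised to 1 Affymetrix array per genotype, with 6 mice per genotype in the design text. With 1 array a group there are no replicates, so each difference is one between 2 arrays, no test was possible, and precision is limited by how few arrays there are. The labels also call the Smad4 f/f mice wild type and control.

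MHC class I molecules are heavy chains that pair with beta-2 microglobulin and display peptides from inside the cell. The peptides are cut by the proteasome, carried into the endoplasmic reticulum by the TAP transporter, trimmed there and loaded with the help of tapasin. Class II molecules are alpha and beta chains that display peptides from endosomes; the invariant chain Cd74 guides them there and the DM and DO proteins edit the peptide. Platelets carry much class I on their surface, and class II is known mainly from B cells, dendritic cells and macrophages. The transactivators Nlrc5 and Ciita drive class I and class II genes through shared promoter elements.

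The promoters of H2-K1 and H2-D1 are shown because the bright probe sets of these genes were all lower on the Smad4 −/− array, beside those of B2m, H2-T23 and H2-Aa, whose brightest probe sets had small ratios or ratios above 0. Each sequence holds the 250 bases before the first listed RefSeq start (GRCm38.p6), 5′ to 3′ on the gene's strand. H2-K1 lies at chr17:34000348-34000597 (minus strand; the table lists 2 starts for it), H2-D1 at chr17:35262844-35263093 (plus), B2m at chr2:122147437-122147686 (plus), H2-T23 at chr17:36032702-36032951 (minus) and H2-Aa at chr17:34287824-34288073 (minus). Capitals mark 4 motifs searched on both strands: GGGATTCCC, the kappa B core of the class I enhancer A; TTTCACTTC, the core of the class I interferon element; TGACG, the core of the cyclic AMP response element; and the CCAAT box, which reads ATTGG where it lies on the other strand. In H2-Aa, 2 matches to TGACG on opposite strands overlap.
H2-K1: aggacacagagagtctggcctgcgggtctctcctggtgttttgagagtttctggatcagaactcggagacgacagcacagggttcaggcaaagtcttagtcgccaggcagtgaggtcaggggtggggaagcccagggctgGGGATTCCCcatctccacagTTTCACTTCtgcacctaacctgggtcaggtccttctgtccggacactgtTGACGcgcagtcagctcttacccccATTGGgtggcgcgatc
H2-D1: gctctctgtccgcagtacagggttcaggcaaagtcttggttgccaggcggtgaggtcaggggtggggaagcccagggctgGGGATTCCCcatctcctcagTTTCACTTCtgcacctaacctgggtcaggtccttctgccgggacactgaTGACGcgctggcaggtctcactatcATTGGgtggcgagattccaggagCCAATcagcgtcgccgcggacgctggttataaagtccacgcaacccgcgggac
B2m: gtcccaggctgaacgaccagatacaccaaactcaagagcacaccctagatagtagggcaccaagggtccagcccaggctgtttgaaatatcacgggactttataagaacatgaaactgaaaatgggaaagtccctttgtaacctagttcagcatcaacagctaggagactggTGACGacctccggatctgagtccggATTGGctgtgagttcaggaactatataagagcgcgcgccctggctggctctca
H2-T23: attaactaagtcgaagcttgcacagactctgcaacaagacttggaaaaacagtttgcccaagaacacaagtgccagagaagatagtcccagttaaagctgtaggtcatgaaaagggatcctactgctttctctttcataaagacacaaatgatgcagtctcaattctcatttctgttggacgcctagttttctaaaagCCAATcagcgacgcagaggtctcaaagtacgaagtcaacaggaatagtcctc
H2-Aa: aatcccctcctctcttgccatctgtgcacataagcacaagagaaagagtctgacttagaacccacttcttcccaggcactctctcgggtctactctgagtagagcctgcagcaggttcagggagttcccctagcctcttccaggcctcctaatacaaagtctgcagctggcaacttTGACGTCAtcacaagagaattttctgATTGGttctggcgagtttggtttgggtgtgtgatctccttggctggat

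Of the 41 symbols, 25 have a promoter in the table. H2-K1, H2-D1, H2-Q6 and H2-Q7 hold GGGATTCCC, as do 0.301% of all 32851 promoter windows of this length. TTTCACTTC is in 7 of the 25 (H2-K1, H2-D1, H2-Q4, H2-Q6, H2-Q7, H2-Q10 and H2-M3) and in 0.402% of all. TGACG is in 9 of the 25 and in 17.8% of all, and the CCAAT box in 21 of the 25 and in 33.8% of all. In H2-D1 the kappa B core starts 170 bases before the start and the interferon core 150 bases before it; in H2-K1 they start at 110 and 90 bases. Both thus lie in the same order and at the same spacing, and the aligned part of the windows is identical at 166 of 190 bases (87.4%). A match is a description of these letters and shows no binding. The promoters shown were picked by their ratios, and other genes with these cores were not all lower on the Smad4 −/− array. Log2 ratios were 0.79 for the set of H2-Q6 and H2-Q8 and 0.13 for that of H2-Q7 and H2-Q9. They were 0.11 for H2-M3 and −0.18 for H2-Q10, and H2-Q4 was too dim for a ratio. A link between motif and ratio was not tested.

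The values are log2 signals, given below as linear signals, and ratios are Smad4 −/− over Smad4 f/f. Low signals were raised to a floor, a linear signal of 145 (log2 7.18), which is the 60th percentile of the array where that is higher. A probe set counted as measured when it reached this floor on either array, and a fold with 1 array below it is a lower bound. Signals of different probe sets cannot be set against each other, since probes differ in how well they bind. Past 2-fold is used as a rule of size. Among all 21377 measured probe sets, 3.24% were at least 2-fold higher on the Smad4 −/− array, 3.51% at least 2-fold lower and 6.75% past 2-fold either way.

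The arrays differed little in general terms. Of all probe sets, 40.0% reached the floor on the Smad4 f/f array and 38.5% on the Smad4 −/− array, and the median log2 ratio of the measured ones was −0.02. The 3 probe sets of Smad4 had log2 ratios from −0.13 to −0.09; a probe set outside the deleted part cannot check the genotype, and their place in the gene was not analysed here. The ratio of 3′ to 5′ Gapdh control signals, which reflects how intact the RNA is, came to 1.86 for Smad4 f/f against 2.61 for Smad4 −/−, and for beta-actin to 1.16 against 1.27. The part of this in the results below was not tested. All 15 platelet markers with a usable probe set were measured; by the brightest probe set of each gene the median log2 ratio was 0.11 and 0 passed 2-fold, while a dimmer set of Selp had a ratio of −1.04. As a technical yardstick, log2 ratios of probe sets of the same gene had a pooled SD of 0.48 over 4252 genes, which holds no spread between animals.

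MHC transcripts were measured in the platelet RNA of both genotypes, and few of their probe sets passed 2-fold, as was so among all measured probe sets. Of the 49 class I probe sets 31 were measured, of which 3 were at least 2-fold higher on the Smad4 −/− array and 0 lower. The shares among all measured probe sets were 3.24% and 3.51%. Those 3, of H2-K1, H2-T18 and Tap1, all lay below the floor on the Smad4 f/f array. Of the 19 class I probe sets that reached the floor on each array, 0 passed 2-fold, against 5.71% of all such probe sets. The 3 calls came from the 12 class I sets with 1 array below the floor. Among all measured probe sets with 1 array below the floor, 8.74% passed 2-fold. Of the 26 class II probe sets 21 were measured, and 0 passed 2-fold in either direction, beside 6.75% of all measured probe sets. Member sets are few, and whether these counts differ from the shares over all probe sets was not tested. With the floor at the 75th percentile the class I count was 0, and with the arrays centred on their medians 1 class II set, shared by H2-DMb2 and H2-DMb1, was at least 2-fold higher.

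**Figure D1:**
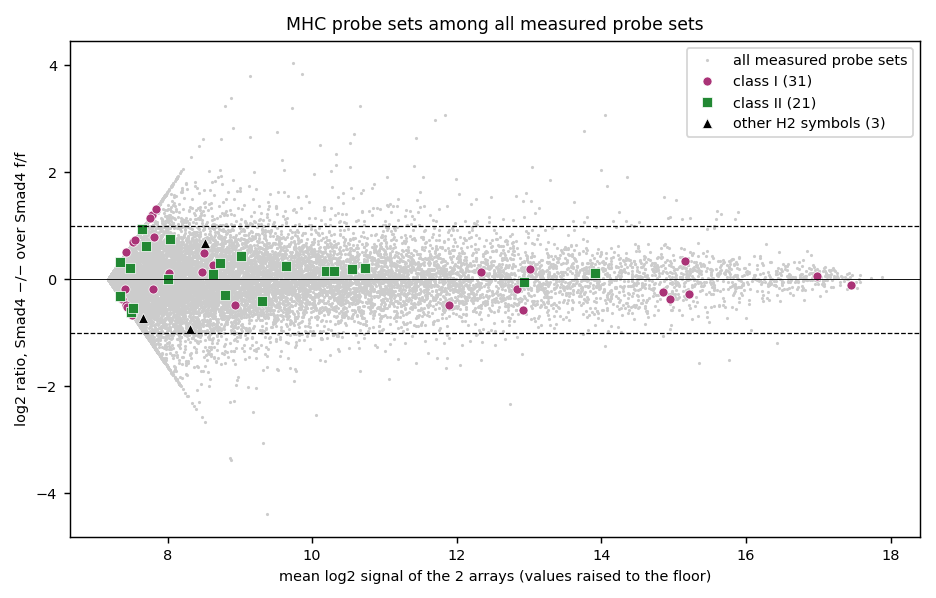
Log2 ratio of Smad4 −/− over Smad4 f/f (vertical) against the mean log2 signal of the 2 arrays (horizontal), with values raised to the floor; each point is 1 probe set and dashed lines mark 2-fold. The 3 class I points above the upper dashed line lie at the left edge, near the floor, and no class II point passes either line.

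The classical class I heavy chains, H2-K1 and H2-D1, present peptides to CD8 T cells. Their 5 probe sets with a mean log2 signal of at least 11 were all lower on the Smad4 −/− array. Among all 3158 probe sets of such signal, 48.8% were lower. For H2-D1, set 1425545_x_at read 41788 on the Smad4 f/f array and 34295 on the Smad4 −/− array, a log2 ratio of −0.29. Set 1451784_x_at of the same gene read 36098 and 27957 (−0.37), and set 1451683_x_at read 9478 and 6364 (−0.57). For H2-K1, set 1451931_x_at read 32412 and 27286 (−0.25) and set 1425336_x_at read 4477 and 3217 (−0.48). All 5 stayed below 0 when the arrays were centred on their medians, quantile normalised or loess corrected. The ratio of −0.57 for H2-D1 is the only one larger in size than the yardstick of 0.48. Against the smaller SD of 0.28 for member sets above the floor on both arrays, all but the −0.25 of H2-K1 are larger. That SD was drawn in part from these same sets. The ending _x_at marks sets with probes that can also bind other transcripts, so these 5 sets may read overlapping targets. Which transcripts each set binds was not analysed here. All 5 come from the same 2 RNA samples and are not replicates.

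The dimmer probe sets of H2-K1 and H2-D1 went both ways. Set 1427746_x_at of H2-K1 read 142 on the Smad4 f/f array, below the floor, and 362 on the Smad4 −/− array, at least 2.49-fold higher. Set 1450534_x_at of H2-K1 read 208 and 123, with Smad4 −/− below the floor. For H2-D1, the remaining measured sets read 362 and 437 (0.27), 238 and 208 (−0.19), and 230 and 34, the last with Smad4 −/− below the floor. A set that names both genes read 126 and 234. Over all measured sets the mean log2 ratio was −0.30 for H2-D1 (SD between 6 sets 0.33) and 0.02 for H2-K1 (SD between 4 sets 0.87). The higher reading of 1 H2-K1 set thus stood against lower readings in the other 3 sets of that gene. The other 3 H2-D1 sets and the only H2-D4 set were below the floor on both arrays.

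Beta-2 microglobulin, the light chain of all these molecules, gave nearly equal signals. The 2 sets of B2m read 186938 and 126776 on the Smad4 f/f array and 172739 and 132250 on the Smad4 −/− array, log2 ratios of −0.11 and 0.06. The sets differed in sign, under the 3 other scalings too. The highest signals of any probe set that is not a control were 236998 for Smad4 f/f and 245082 for Smad4 −/−. Both B2m sets thus lie near the top of the scale, and whether differences are compressed there was not tested.

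Non-classical class I heavy chains present special peptides or bind receptors of natural killer and other cells. The bright sets of this group went both ways, with small ratios. H2-T23, which encodes Qa-1, the ligand of CD94/NKG2 receptors, read 32488 on the Smad4 f/f array and 40984 on the Smad4 −/− array (0.34), in a set that it shares with the pseudogene H2-T-ps. The second set of this pair read 185 and 89, with Smad4 −/− below the floor, so the sets disagreed. The set shared by H2-T9, H2-T22 and H2-T10 read 7702 and 8809 (0.19), and that of H2-T24 read 7763 and 6837 (−0.18). Together with Tapbp, 3 of 4 bright class I sets outside H2-K1, H2-D1 and B2m were higher and 1 was lower, under all 4 scalings. As deposited, 1617 of all 3158 probe sets with a mean log2 signal of at least 11 were higher.

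The dim members of this group held 1 call. H2-T18 read 52 on the Smad4 f/f array and 322 on the Smad4 −/− array, at least 2.22-fold higher by its own set 1460418_x_at, but the set it shares with H2-T3 read 582 and 414 (−0.49). H2-T3 alone read 126 and 205 in one set and 183 and 111 in another, on opposite sides of the floor. Among the Qa-2 genes, H2-Q6 and H2-Q8 read 171 and 296 in a shared set (0.79) and H2-Q7 and H2-Q9 read 340 and 371 (0.13). H2-Q10, known mainly from liver, read 182 and 161 (−0.18), and H2-M3, which presents formylated peptides, read 249.8 and 269.9 (0.11). A set for H2-Q2, H2-D1 and Gm38417 read 188 and 127, with Smad4 −/− below the floor. Of 20 sets in this group 7 lay below the floor on both arrays, with signals from 4.7 to 113; they include both sets of H2-Q5 and the one it shares with H2-K1, the H2-Q2 set, the H2-Q4 set (shared with H2-Q6 and H2-Q8) and the H2-M9 set.

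**Figure D2:**
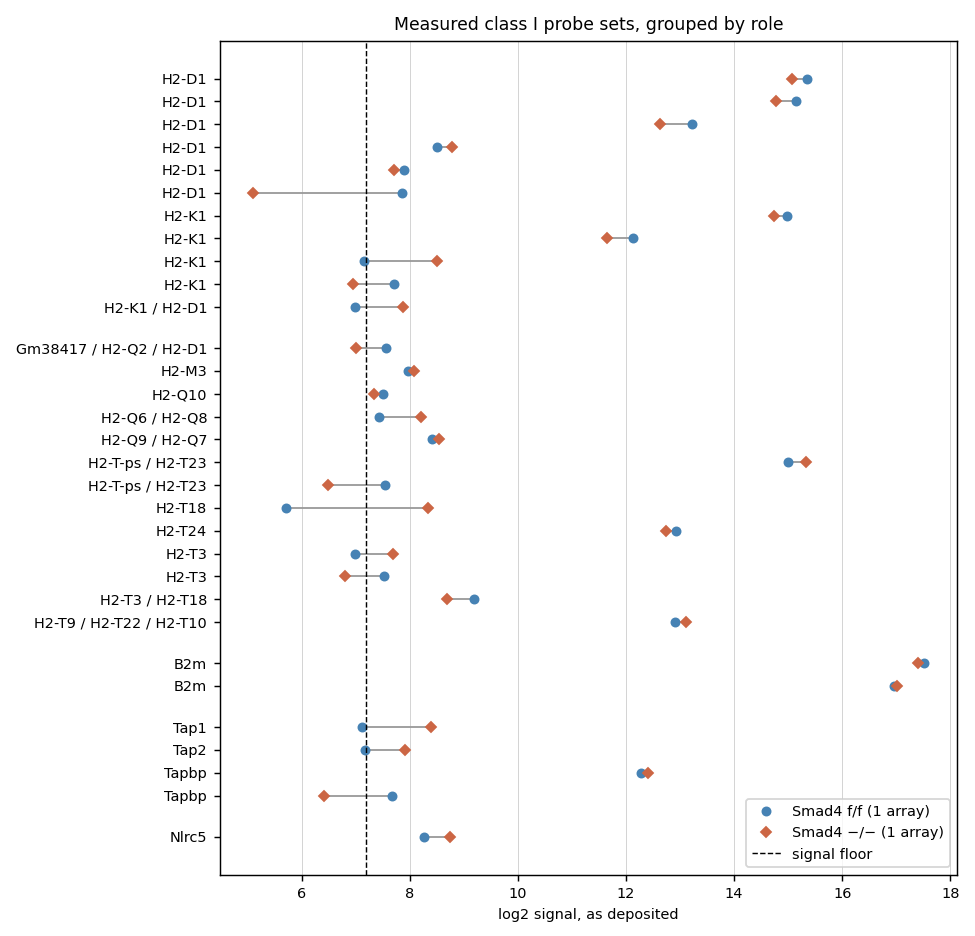
Log2 signal as deposited (horizontal) of the 31 measured class I probe sets, 1 row each, grouped by role, with Smad4 f/f as circles and Smad4 −/− as diamonds (1 array each) and the floor as a dashed line. The bright H2-D1 and H2-K1 rows have the Smad4 −/− symbol to the left, the bright H2-T23 row has it to the right, and the widest gaps lie around the floor.

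Peptide transport and loading gave 1 call, from 1 of 4 probe sets of its gene. Tap1, a subunit of the peptide transporter, read 139 on the Smad4 f/f array, just below the floor, and 334 on the Smad4 −/− array in set 1416016_at, at least 2.30-fold higher. Its other 3 sets were below the floor on both arrays and so were not measured; as deposited they read 122 and 16, 77 and 15, and 71 and 6.6. Tap2, the partner subunit, read 143 and 240 in its only set, also from just below the floor (0.73). Tapbp, which encodes tapasin, read 4928 and 5440 in its bright set (0.14) and 204 and 85 in the dim one. Both sets of Erap1, the peptidase that trims class I peptides, and of Tapbpl, a tapasin-related editor, lay below the floor on both arrays, between 6.8 and 129. Nlrc5, the class I transactivator, read 308 and 430 (0.48).

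Counted over the 31 measured class I sets, 15 ratios lay above 0 and 16 below, with a median log2 ratio of −0.11. That sign depended on how sets of the same gene were weighed and on the floor. The median was 0.14 with 1 set per gene or symbol group, the brightest, 0.08 with the mean of their sets, and 0.13 without sets ending in _s_at, _x_at or _a_at, which left 13. With the floor at the 75th percentile it was 0.09. H2-D1 and H2-K1, with 10 measured sets of their own, weigh most in the count by probe set.

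Class II transcripts were measured on both arrays, and the 18 probe sets that reached the floor on each differed by less than 2-fold. H2-Aa, the alpha chain of the I-A molecule, read 14825 on the Smad4 f/f array and 16128 on the Smad4 −/− array in its brightest set (0.12), and its other sets read 7930 and 7666 (−0.05), 1193 and 1329.5 (0.16), and 728 and 552 (−0.40). The sets of H2-Ab1, the I-A beta chain, read 731 and 866 (0.24), 202 and 341 (0.76), and 259 and 258. H2-Eb1, the I-E beta chain, read 1573 and 1820 (0.21), and the related H2-Eb2 read 220.0 and 152 (−0.53). All 3 sets of H2-Ea, the I-E alpha chain, were below the floor on both arrays, with signals from 27 to 97. C57BL/6 mice are known not to express this gene, and the other strain-typical chains, H2-Aa, H2-Ab1 and H2-Eb1, were above the floor in every set.

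Cd74, the invariant chain, read 1409 on the Smad4 f/f array and 1607 on the Smad4 −/− array (0.19). Ciita, the class II transactivator, read 167 and 192 (0.20) and 143 and 182 (0.32) in 2 sets near the floor, and below the floor on both arrays in a further set. Among the peptide editors, H2-Ob read 1111 and 1233 (0.15) in its own set, but 224 and 146 (−0.62) in the set shared with Gm20506. H2-Oa read 382 and 410 (0.10) and H2-DMa read 492 and 403 (−0.29), with a further H2-DMa set below the floor. All 3 sets of H2-DMb2 alone were higher on the Smad4 −/− array, at 446 and 604 (0.44), 382 and 471 (0.30) and 168 and 259 (0.62). The 2 sets shared by H2-DMb2 and H2-DMb1 disagreed, with 95 and 278 in one, from below the floor (a log2 ratio of at least 0.94, and 1.55 as deposited), and 180 and 104 in the other.

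Of the 21 measured class II sets, 14 ratios lay above 0 and 7 below, with a median of 0.16, beside −0.02 for all measured probe sets. Of the 18 above the floor on both arrays 12 were higher, beside 49.2% of all such probe sets; the count was 14 with median centring and 13 with quantile normalisation or loess correction. The ratios ran from −0.62 to 0.76, and those of H2-Aa, H2-Eb1, Cd74, H2-Oa and the H2-Ob set of its own stayed within the yardstick of 0.48. Of these, the H2-Aa ratio of −0.40 was larger in size than the SD of 0.28 for member sets above the floor on both arrays. The median stayed above 0, between 0.13 and 0.25, under every alternative tried.

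**Figure D3:**
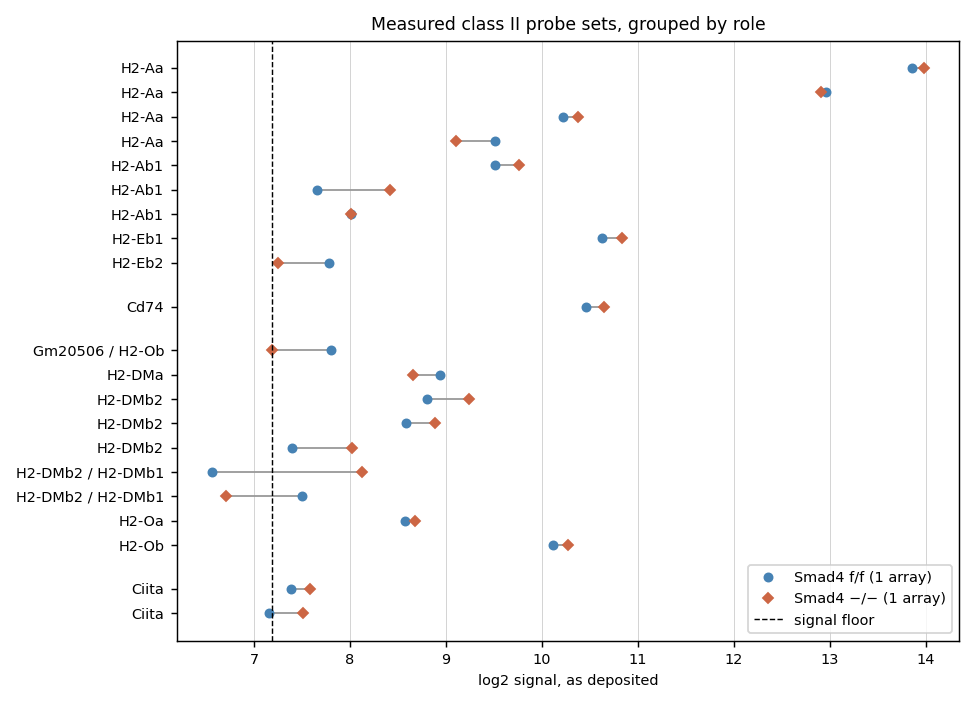
Log2 signal as deposited (horizontal) of the 21 measured class II probe sets, 1 row each, grouped by role, with Smad4 f/f as circles and Smad4 −/− as diamonds (1 array each) and the floor as a dashed line. In the rows of H2-Eb1, Cd74 and the bright H2-Aa sets the 2 symbols nearly touch, while H2-Ab1, H2-DMb2 and H2-DMb1 have rows with wider gaps.

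Markers of cells that carry class II were read beside these values, with the brightest probe set for each gene. Summed signals take in every marker with a usable probe set, as deposited, also those below the floor. In bulk RNA, fewer cells of a type and less RNA per cell cannot be told apart. Of 12 B cell markers with a usable probe set 11 were measured, with 1 at least 2-fold higher (Cr2), 0 lower and a median log2 ratio of 0.21; Pax5 was below the floor. Their summed signal was 6779 on the Smad4 f/f array and 7666 on the Smad4 −/− array. The brightest were Ms4a1 (1867 and 1848), Ighm (1278 and 1626), Cd79b (969.7 and 1120.3) and Cd22 (529 and 716). Of 10 dendritic cell markers 5 were measured, with a median of 0.07, 1 at least 2-fold lower (Siglech) and summed signals of 1439 and 1273. Itgax, Zbtb46, Ccr9 and Siglech were the brightest of them, and Flt3, Xcr1, Cd209a, Batf3 and Clec10a were below the floor. Of 11 monocyte and macrophage markers 6 were measured, with a median of −0.04, 1 at least 2-fold higher (Csf1r, whose sets disagree) and summed signals of 140835 and 132881, nearly all of it from Lyz2. Adgre1 and Mpeg1 were also among the brightest, and Cd14, Ccr2, Ms4a7, Clec4a2 and Itgam were below the floor. The part of these cells in the class II values was not tested.

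Lists of 3 other kinds of blood cell were read in the same way. T and NK cell markers (9 measured, led by Cd28, Nkg7, Gzma and Cd2) had a median of 0.41, with 1 at least 2-fold higher (Cd28, 4685 and 12825) and Cd3e, Cd3g, Cd4, Cd8b1 and Cd5 below the floor. Of these ratios 8 lay above 0 and 1 below, that of Cd3d (355.5 and 180.8, −0.98), named after its value was seen. Neutrophil markers (7 measured, led by S100a8, S100a9, Ngp and Mmp9) had a median of 0.23, with 0 past 2-fold and Camp, Elane, Mpo and Mmp8 below the floor. Erythroid markers (10 measured, led by Fech, Bpgm, Alas2 and Sptb) had a median of 0.74, with 5 at least 2-fold higher and Epb42, Rhag and Kel below the floor. The signals summed over each list, in that order, were 7673 and 16693, 6389 and 8121, and 12749 and 31060, and most of the first sum is Cd28. Their part in the class I values was not tested. The brightest platelet markers were Clec1b, Pf4, Ppbp and Tubb1.

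Genes that serve the MHC pathways outside these families were counted with 1 value per gene, that of its brightest probe set. Among all 11089 genes measured in this way 3.42% were at least 2-fold higher on the Smad4 −/− array, 3.58% at least 2-fold lower and 7.00% past 2-fold either way. In the supply of class I peptides, 9 of 9 genes were measured and 0 passed 2-fold, with a median log2 ratio of 0.11. Npepps, a cytosolic aminopeptidase, read 6341 and 6828, and Psme1, a proteasome activator subunit, read 4035 and 4955. The immunoproteasome subunits Psmb8, Psmb9 and Psmb10, chosen for mention after their values were seen, had log2 ratios of 0.26, −0.28 and 0.16. Among chaperones and the translocon of the endoplasmic reticulum, 0 of 9 passed 2-fold and the median was −0.10, with Bcap31 at 82175 and 70659 and the lectin chaperone Canx at 9664 and 10070.5.

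The endosomal list for class II holds proteases that cut antigens and the invariant chain, the thiol reductase Ifi30 and the ubiquitin ligases Marchf1 and Marchf8. Of its 10 measured genes, 7 ratios lay above 0 and 3 below, with a median of 0.23, and 1 passed 2-fold. Lgmn, a cysteine protease that cleaves after asparagine, read 847 on the Smad4 f/f array and 394 on the Smad4 −/− array, 2.15-fold lower in its 1 measured set. The following genes were picked after their values were seen. Marchf1 read 188 and 248 (0.40) in its brightest set, but its 3 measured sets disagreed, with ratios from −1.39 to 0.40. Ctss, the cathepsin that degrades the invariant chain in antigen-presenting cells, read 1498 and 2665 (0.83). Ctsb read 2987 and 5661 (0.92), and all 4 of its sets were higher, from 0.87 to 1.23. Ctsd read 20462 and 32384 (0.66) and Ctsh 374 and 643 (0.78), while Ctsl read 270.2 and 137 (−0.90, with Smad4 −/− below the floor). These proteases also work in lysosomes of cells without class II.

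Factors that act on MHC promoters showed no gene past 2-fold. Of 7 measured factors that bind class I and II promoters, 3 ratios lay above 0 and 4 below, with a median of −0.17; Nfyc and Nfyb, subunits of the factor that binds the CCAAT box, read 1847 and 2288 (0.31) and 1557 and 1203 (−0.37), and the sets of Nfyb disagreed. Of 13 interferon and NF-kB inputs, 5 ratios lay above 0 and 8 below, with a median of −0.05. Jak1, a kinase of both interferon receptors, read 15872 and 15526 (−0.03), and Jak2, which serves the interferon gamma receptor, read 18349.6 and 11483 (−0.68).

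Of 7 class I-like genes outside the H2 region 2 were measured, and they went opposite ways. Cd1d1, which presents lipids to NKT cells, read 271 and 590.2, 2.18-fold higher, and its other set had a log2 ratio of 0.71. Mr1, which presents vitamin metabolites to MAIT cells, read 301 and 138, at least 2.07-fold lower with Smad4 −/− below the floor, and its other set had a ratio of −0.33. Of 7 measured costimulatory ligands 0 passed 2-fold, with a median of 0.03. Cd274, which encodes PD-L1, read 3666 and 3780 (0.04), and Cd40 read 238 and 201 (−0.25) with sets that disagreed in sign.

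**Figure D4:**
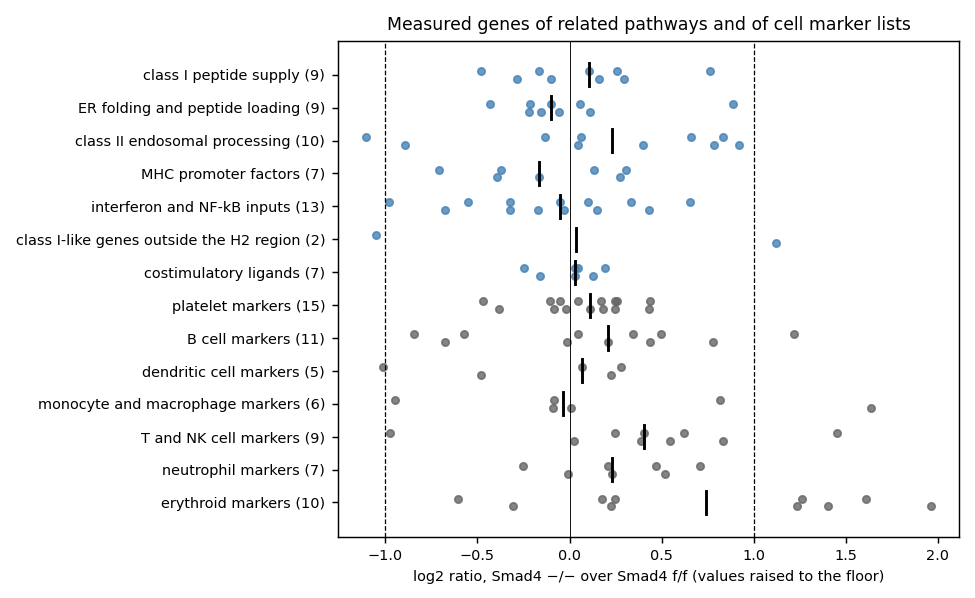
Log2 ratio of Smad4 −/− over Smad4 f/f (horizontal) of each measured gene of the related pathway lists (blue) and the cell marker lists (grey), with the number of genes in brackets, the median as a black bar and 2-fold as dashed lines. In the pathway lists Lgmn, Cd1d1 and Mr1 lie past a dashed line; in the marker lists 5 erythroid markers do, with Cr2, Siglech, Csf1r and Cd28.

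By gene order in the H2 region, higher and lower sets were mixed along its length. H2-K1 lies before the class II genes of this region and H2-D1 beyond them, and the bright sets of both were lower. The class II sets between them went both ways, also within H2-Aa and H2-Ob. H2-Ke6, a gene named for its place beside H2-K that encodes a steroid dehydrogenase, read 261 and 157 (−0.73). H2-Bl, a class I-type gene counted apart here, read 437 and 229 (−0.94) in its own set and 291 and 463 (0.67) in a set shared with 2 other symbols. H2-M10.1, which the pattern for members does not match because of the point in its symbol, read 321 and 45, at least 2.21-fold lower on the Smad4 −/− array; it was looked up after the other values were seen.

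**Figure D5:**
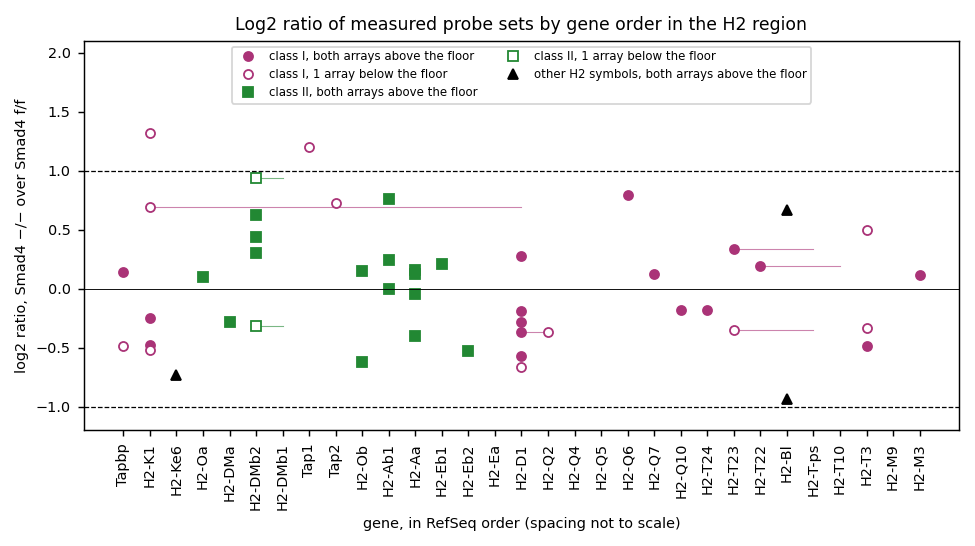
Log2 ratio of Smad4 −/− over Smad4 f/f (vertical) of measured probe sets, placed by the RefSeq order of their genes in the H2 region (horizontal, not to scale); a thin line spans the genes of a set with several symbols, open symbols have 1 array below the floor, and dashed lines mark 2-fold. H2-T9, H2-T18, H2-Q8 and H2-Q9 have no place in this order and B2m, Cd74, Ciita and Nlrc5 lie elsewhere. The 2 class I points past 2-fold are a set each of H2-K1 and Tap1.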

How the data were processed

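Total RNA of washed platelets was measured on 1 Affymetrix Mouse Genome 430 2.0 array per genotype. The authors deposited a log2 signal for each probe set. MAS5, which summarises and scales each array, is named per the submitters' processing notes, without version or settings. The log scale was read from the values: antilogs trimmed by 2% at each end average 500.01 on both arrays. Detection calls were not used here. Of 78 member probe sets 63 have 1 symbol; 40 of 41 symbols matched RefSeq (GRCm38.p6) through Entrez IDs, and 0 changed. Ratios were taken on values raised to the floor, with no test, as each genotype has 1 array. Every member symbol with a measured set is named; in each pathway list the genes past 2-fold, or else the 2 brightest, and in each marker list the 4 brightest. The steps were tested on simulated data, with large changes placed only in probe sets well above the floor. That test does not cover calls near the floor. The members, lists and alternatives were chosen with earlier results of these data known. Alternatives were 3 other scalings, other floors and folds, leaving out kinds of probe set, and 1 value per gene. Python 3.11.15 with pandas 2.3.3 and statsmodels 0.14.6 was used.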

Additional observations from a re-analysis of the deposited data

How the results depend on the processing

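No paired analysis was possible because each genotype has 1 array. The cause of each move below was not tested, apart from the number of sets that a floor or filter leaves. For class I, the count at least 2-fold higher was 3 and became 0 with the floor at the 75th percentile, 6 with no floor, 1 without sets ending in _s_at, _x_at or _a_at, 6 at 1.5-fold and 0 at 3-fold. The count at least 2-fold lower was 0 and became 1 with the floor at the 50th percentile, 9 with no floor and 1 at 1.5-fold. The class I median log2 ratio of −0.11 became 0.093 with the floor at the 75th percentile, 0.13 without sets of those endings, 0.085 with the mean of sets and 0.14 with the brightest set. For class II, the count at least 2-fold higher was 0 and became 1 with median centring, 1 with the floor at the 50th percentile, 2 with no floor and 3 at 1.5-fold; the count lower was 0 and became 1 with no floor and 1 at 1.5-fold. The class II median stayed between 0.13 and 0.25. Of the 55 measured member sets, 55 stayed within the yardstick of 0.48 of their main ratio under each of the 3 other scalings. Median centring could not move a set further, since the array medians (log2 6.70 for Smad4 f/f, 6.61 for Smad4 −/−) lie closer. With the floor at the 50th percentile or none 50 stayed within it, and with the floor at the 75th percentile 31 of 37 did. No call reversed, but a floor cannot change the sign of a ratio, and leaving out sets changes no ratio. Nor could median centring reverse a call past 2-fold. The lack of reversals is thus no check of the calls under those settings. At the 75th percentile the sets of H2-K1, H2-T18 and Tap1 had log2 ratios of 0.47, 0.31 and 0.36. Dim sets limit these data: 23 of 78 lay below the floor on both arrays and 15 on 1.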
